A study of Homo sapiens with 9 samples.

Results

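The Hedgehog pathway genes examined were the ligand genes IHH and DHH, the receptor and membrane genes PTCH1, SMO and HHIP, the inhibitor gene SUFU and the transcription factor genes GLI1, GLI2 and GLI3. They were taken as every Affymetrix probe set annotated to exactly 1 of these 9 symbols, which gave 24 of the 54613 probe sets that are not array controls. Expression had been measured on 9 arrays in PANC-1, a human pancreatic carcinoma line long kept in culture. The groups were cells exposed to 5 uM BRD7552, a small molecule, for 72 h (3 arrays), cells exposed to 5 uM BRD7552 for 6 h (3 arrays), and cells given the solvent DMSO (3 arrays, with no exposure time in the labels). The same DMSO arrays served both comparisons with solvent, and time in culture and exposure cannot be told apart at 72 h against 6 h. As the DMSO arrays carry no time, the comparisons with DMSO may also differ in time in culture. The question addressed was whether PTCH1 moved with the GLI genes.

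Hedgehog ligands bind the membrane protein encoded by PTCH1, which in their absence holds back the receptor-like membrane protein encoded by SMO. Active SMO releases GLI2 and GLI3 from SUFU, and the GLI factors then switch on target genes. PTCH1, HHIP and GLI1 are themselves such targets, so PTCH1 and HHIP act in negative feedback and the GLI1 transcript is widely read as a sign of pathway activity. In pancreatic carcinoma, ligand from the tumour cells is known to act largely on the surrounding stroma, of which a cell line has none.

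The values were deposited intensities on a linear scale, analysed as log2, and they do not allow the level of 1 probe set to be set against that of another. A mean log2 signal at or above that of the median probe set (17.8 on the linear scale) was taken as a mark of measurable signal, and 9 of the 24 probe sets reached it. The array medians ran from 16.2 to 18.8. Upper quartiles were 117, 97.2 and 99.5 on the 72 h arrays, 112 to 119 at 6 h and 113 to 117 for DMSO. The main fit applied no further normalization, and fits with other scalings are given at the end. The median SD of a probe set within a group was 0.159 log2 units at 72 h, 0.0988 at 6 h and 0.0849 for DMSO, and the fit used 1 spread for all 3 groups. For the ACTB control probe sets, signal at the 3' end over that at the 5' end was 2.07 to 2.21 at 72 h, 1.74 to 2.05 at 6 h and 1.91 to 2.01 for DMSO. For GAPDH it was 1.34 to 1.39 at 72 h, 1.27 to 1.31 at 6 h and 1.31 to 1.35 for DMSO, so that 72 h and DMSO overlapped. The part of these ratios in the results was not tested. Of 8 ductal epithelium markers, 7 had measurable signal, and their summed signal over all 8 was 27824 to 29668 at 72 h, 34896 to 35050 at 6 h and 34542 to 35438 for DMSO. Measurable signal was found for 1 of 3 acinar, 4 of 8 stromal fibroblast, 1 of 4 leukocyte and 1 of 5 endothelial markers, each counted over the markers with a usable probe set. In such bulk samples fewer cells of a type and less RNA per cell cannot be told apart. Nothing in the labels ties the replicates to separate cultures, so p-values here measure the spread between these samples, which may be technical.

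PTCH1 was the 1 member gene that rose, and it did so at 72 h. Probe set 209815_at, the brightest of 5 for PTCH1 (human gene on chromosome 9, 95442980 to 95516971, GRCh38.p14), had a signal of 152, 129 and 117 on the 72 h arrays, 75.3, 80.5 and 72.4 on the 6 h arrays, and 57.4, 57.4 and 54.3 on the DMSO arrays. The 3 groups did not overlap, with every 72 h array above every 6 h array and every 6 h array above every DMSO array. The mean signal was 133 ± 18.0 at 72 h and 56.4 ± 1.80 for DMSO (SD, n = 3 each), a 2.34-fold difference (95% interval 1.98 to 2.77) or 1.23 ± 0.11 on the log2 scale (SE). The limma adjusted p over all 54613 probe sets was 2.53e-05. Against the 6 h arrays, at a mean of 76.0 ± 4.12, the 72 h arrays were 1.74-fold higher (log2 0.80 ± 0.11, adjusted p = 0.00098).

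At 6 h the same probe set stood 1.35-fold above DMSO (log2 0.43 ± 0.11, unadjusted p = 0.00213), and this did not pass adjustment over all probe sets (limma adjusted p = 0.820). It stayed short of the threshold in all 19 alternative settings, with an adjusted p of 0.0591 at the lowest, when arrays were weighted by their quality. An exact two-sided permutation test of the group means gave p = 0.1 for PTCH1 in each of the 3 comparisons, which is the smallest p that 3 arrays against 3 allow. The fit used 1 error for all groups although the 72 h arrays spread more widely, and in data simulated with these unequal spreads false calls exceeded the nominal rate in both comparisons with the 72 h arrays. With only the 72 h and DMSO arrays in the fit the limma adjusted p of PTCH1 was 0.00066.

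**Figure D1:**
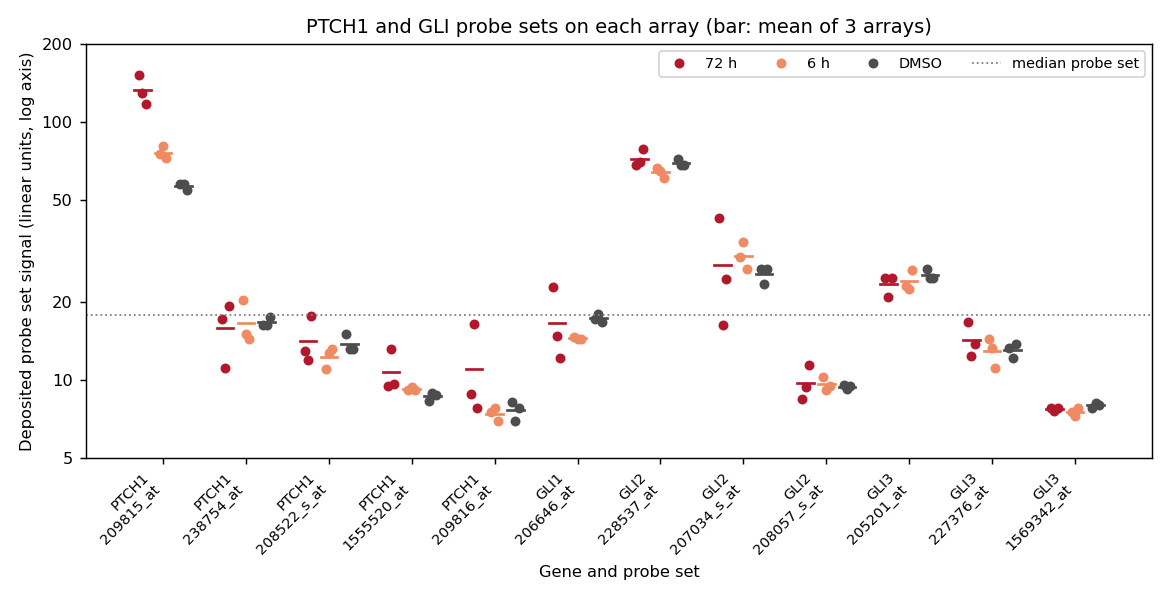
Deposited signal of each PTCH1 and GLI probe set on each array (linear units on a log axis), with the 72 h, 6 h and DMSO arrays from left to right at each probe set and a bar at the mean of 3 arrays. PTCH1 209815_at separates the groups at 117 to 152, 72.4 to 80.5 and 54.3 to 57.4, while most other probe sets overlap or lie under the dotted line of the median probe set (17.8); heights of different probe sets are not comparable.

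The other 4 PTCH1 probe sets gave no matching call. All 4 had means below that of the median probe set, from 8.73 to 16.4. Probe set 1555520_at had a signal of 9.47, 13.3 and 9.66 at 72 h, 9.18, 9.38 and 9.18 at 6 h, and 8.32, 8.91 and 8.78 for DMSO. These groups did not overlap either, with a log2 difference between 72 h and DMSO of 0.30 ± 0.13 (limma adjusted p = 0.213). Probe set 209816_at had a signal of 8.81, 16.6 and 7.81 at 72 h, 7.53, 7.79 and 6.97 at 6 h, and 8.27, 6.96 and 7.81 for DMSO, so that its log2 difference of 0.45 ± 0.21 at 72 h (adjusted p = 0.279) rests on replicate 2. The log2 differences between 72 h and DMSO were -0.12 ± 0.20 for 238754_at and 0.017 ± 0.15 for 208522_s_at. Which PTCH1 transcripts each probe set reads was not analysed here.

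PTCH1 has several promoters, and RefSeq windows of 300 bases (250 before and 50 after each annotated start) were searched because PTCH1 is a textbook GLI target. The 7-letter core of the GLI binding motif, ACCACCC, was sought on both strands, where the reverse strand reads GGGTGGT. It occurs in 4.77% of 35116 windows of this length. Windows were found for 7 of the 9 members (12 windows), and 2 of these held the core, 1 of 5 for PTCH1 and the 1 for DHH. GLI1 and GLI3 had no window, so their promoters were not searched. The PTCH1 window lies at chr9:95509217-95509516 (GRCh38.p14, minus strand), its core starts 171 bases before the annotated start (95509431 to 95509437), and the DHH window lies at chr12:49094752-49095051 (minus strand) with the core at its outer end (49095045 to 49095051). Capitals mark the core, and a match is a description of letters, not of binding.
PTCH1: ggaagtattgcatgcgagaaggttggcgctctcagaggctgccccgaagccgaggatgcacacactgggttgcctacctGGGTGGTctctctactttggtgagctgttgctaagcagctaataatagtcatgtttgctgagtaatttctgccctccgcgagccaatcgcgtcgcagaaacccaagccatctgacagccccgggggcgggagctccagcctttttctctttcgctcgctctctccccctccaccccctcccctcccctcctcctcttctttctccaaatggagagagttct
DHH: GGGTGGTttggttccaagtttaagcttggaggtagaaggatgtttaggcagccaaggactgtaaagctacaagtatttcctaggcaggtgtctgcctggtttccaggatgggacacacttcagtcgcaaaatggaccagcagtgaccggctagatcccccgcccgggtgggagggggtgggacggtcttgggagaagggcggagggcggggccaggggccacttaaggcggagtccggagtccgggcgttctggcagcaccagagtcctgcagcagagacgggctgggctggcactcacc

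No change was detected in the GLI factors. GLI1 (chromosome 12, 57459785 to 57472268), the activator that is itself induced by the pathway, had 1 probe set (206646_at) with a signal of 23.0, 14.8 and 12.2 at 72 h, 14.8, 14.5 and 14.4 at 6 h, and 17.3, 18.1 and 16.7 for DMSO. The 6 h arrays all lay below the DMSO arrays, and the 72 h arrays lay on either side of them. The log2 difference from DMSO was -0.11 ± 0.19 at 72 h (ratio 0.927, 95% interval 0.697 to 1.23, limma adjusted p = 0.835) and -0.25 ± 0.19 at 6 h (adjusted p = 1). Its mean signal of 16.2 over the 9 arrays was below that of the median probe set. Without 72 h replicate 3 the value at 72 h turned to 0.089, and without 72 h replicate 1 it was -0.37.

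GLI2 (chromosome 2, 120735868 to 120992653), the main activator downstream of SMO, was read best by 228537_at, with a signal of 67.9, 69.6 and 78.8 at 72 h, 66.1, 64.3 and 60.6 at 6 h, and 71.6, 68.2 and 68.2 for DMSO. The 6 h arrays lay below the others by a small margin, and the 72 h and DMSO arrays overlapped. The log2 difference from DMSO was 0.054 ± 0.10 at 72 h (95% interval of the ratio 0.889 to 1.21) and -0.12 ± 0.10 at 6 h. The next GLI2 probe set, 207034_s_at, spread at 72 h over 42.3, 16.3 and 24.7, against 23.6 to 26.9 for DMSO. Probe set 208057_s_at was dim, with log2 differences of 0.038 and 0.029.

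GLI3 (chromosome 7, 41960949 to 42264268), which is processed to a repressor when the pathway is off, was read best by 205201_at, with a signal of 24.8, 21.0 and 24.8 at 72 h, 23.1, 22.6 and 26.7 at 6 h, and 26.9, 24.8 and 24.8 for DMSO. The 3 groups overlapped, and the log2 difference from DMSO was -0.12 ± 0.13 at 72 h and -0.081 ± 0.13 at 6 h. The dimmer GLI3 probe sets stood at 0.12 ± 0.15 and -0.051 ± 0.079 at 72 h.

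**Figure D2:**
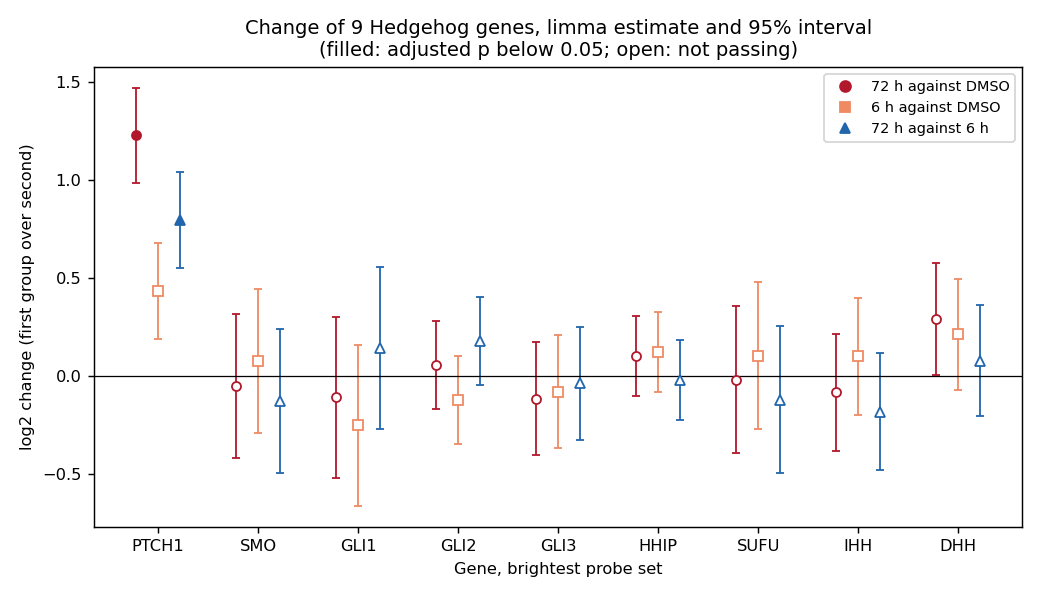
The log2 change of the brightest probe set of each gene with its 95% interval from limma, for both exposure times against DMSO and for the times against each other, n = 3 arrays per group. Filled symbols passed an adjusted p of 0.05, which only PTCH1 did (1.23 at 72 h against DMSO and 0.80 at 72 h against 6 h).

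The distance between PTCH1 and each GLI gene was then measured on every array as the difference of their log2 signals, whose zero has no meaning but whose shift between groups gives the difference of their changes. PTCH1 minus GLI1 averaged 3.04 ± 0.28 at 72 h, 2.38 ± 0.078 at 6 h and 1.70 ± 0.033 for DMSO (SD, n = 3 each). The shift from DMSO was 1.34 at 72 h and 0.68 at 6 h, and 0.65 between 72 h and 6 h. For PTCH1 minus GLI2 the shifts were 1.17, 0.55 and 0.62, and for PTCH1 minus GLI3 they were 1.34, 0.51 and 0.83 in the same order. The groups did not overlap in any of these 9 comparisons. All 9 hold the same PTCH1 values, which separate the 3 groups by themselves, so they are not 9 separate results. Of single probe sets, rather than differences, 19.8% did not overlap between 72 h and DMSO, 8.35% between 6 h and DMSO and 17.9% between 72 h and 6 h. Each of the 9 differences gave p = 0.1 by a two-sided exact permutation test, the smallest possible, and 0.1 after Benjamini-Hochberg adjustment over the 9. By the brightest probe sets, PTCH1 minus each GLI gene was thus higher on every treated array than on any DMSO array, without a p that could pass 0.05 in this design.

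With all probe sets of each gene averaged, 4 of the 5 for PTCH1 being dim, the shifts at 72 h were 0.48, 0.34 and 0.39 for GLI1, GLI2 and GLI3. At 6 h they were 0.31, 0.011 and 0.12, and for 72 h against 6 h 0.18, 0.33 and 0.27. Among the 72 h arrays PTCH1 and GLI1 were both highest on replicate 1 and lowest on replicate 3, whereas GLI2 was highest on replicate 3. By their brightest probe sets SMO, SUFU and DHH were also highest on replicate 1, and HHIP and IHH on replicate 3. A peak on replicate 1 was thus not particular to PTCH1 and GLI1.

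**Figure D3:**
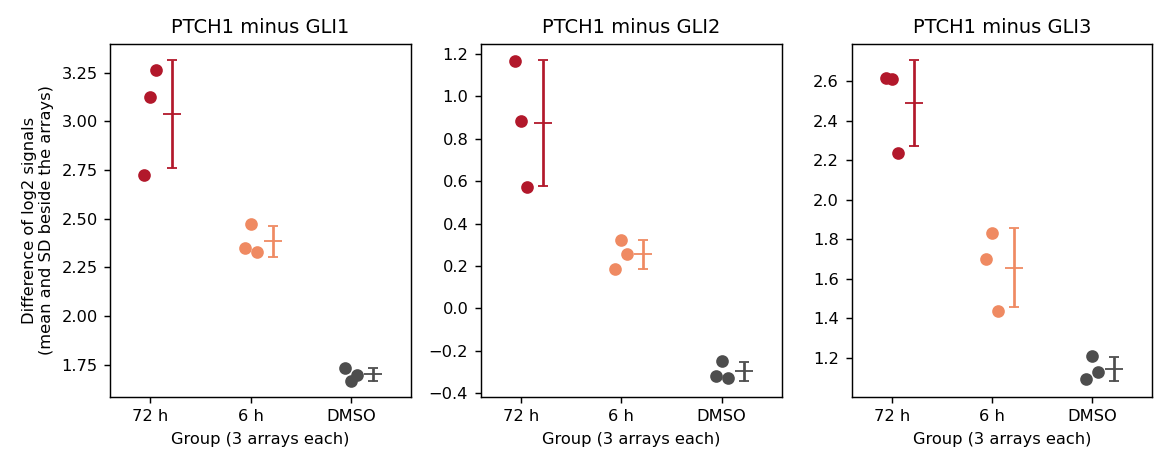
Difference of the log2 signals of PTCH1 and GLI1, GLI2 or GLI3 on each array, with the mean and SD of 3 arrays beside the points, for the 72 h, 6 h and DMSO groups; each panel has its own axis, which does not start at 0. For GLI1 the means are 3.04, 2.38 and 1.70, and the groups do not overlap in any panel.

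HHIP (chromosome 4, 144646156 to 144745271), which encodes a membrane protein that binds and sequesters the ligands and is, like PTCH1, a GLI target, stayed at low signal. The brightest of its 4 probe sets, 230135_at, read 8.39, 8.76 and 9.57 at 72 h, 8.76, 9.57 and 8.76 at 6 h, and 8.76, 8.01 and 8.11 for DMSO. The groups overlapped, and the log2 difference from DMSO was 0.10 ± 0.095 at 72 h and 0.12 ± 0.095 at 6 h. The other 3 were dimmer, at means of 6.32 to 7.57, and their log2 differences at 72 h were 0.025, 0.022 and 0.060.

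SMO (chromosome 7, 129188633 to 129213545), the signal transducer, had 1 probe set (218629_at) with a signal of 31.7, 30.5 and 25.5 at 72 h, 38.7, 27.2 and 30.5 at 6 h, and 30.7, 35.3 and 25.4 for DMSO. These ranges overlapped throughout. The log2 difference from DMSO was -0.054 ± 0.17 at 72 h and 0.073 ± 0.17 at 6 h, and both signs depended on single arrays or on the scaling. SUFU (chromosome 10, 102502819 to 102633535), the cytoplasmic inhibitor of the GLI factors, read 67.9, 39.5 and 49.0 at 72 h by its brightest probe set, 222749_at, 55.6, 56.0 and 54.4 at 6 h, and 45.2, 58.8 and 51.4 for DMSO. The 72 h arrays spread more widely than the others and overlapped them, and the log2 difference from DMSO was -0.019 ± 0.17 at 72 h and 0.10 ± 0.17 at 6 h. Its 3 other probe sets, all dim, stood between -0.023 and 0.068 at 72 h.

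Of the member ligand genes, DHH (chromosome 12, 49086656 to 49094801), the desert hedgehog ligand known from testis and peripheral nerve, had the lower adjusted p at 72 h. Its probe set 1552730_at read 35.8, 30.0 and 32.8 at 72 h, 30.0, 32.9 and 30.5 at 6 h, and 24.8, 26.0 and 30.0 for DMSO. Only the highest DMSO array reached the range of the treated arrays. The log2 difference from DMSO was 0.29 ± 0.13 at 72 h (unadjusted p = 0.0475, limma adjusted p = 0.262) and 0.21 ± 0.13 at 6 h. IHH (chromosome 2, 219054424 to 219060921), the Indian hedgehog ligand of cartilage and gut, had 2 probe sets just above the median probe set that stood at -0.083 ± 0.14 and 0.14 ± 0.22 at 72 h, and at 0.10 ± 0.14 and -0.18 ± 0.22 at 6 h. Probe set 229358_at of IHH read 20.9, 14.1 and 29.6 at 72 h, against 20.03, 19.1 and 17.2 for DMSO.

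The third Hedgehog ligand gene, SHH, is no member and was added after its values were seen. Its brighter probe set read 169.9, 133 and 124 at 72 h, 167, 172 and 167 at 6 h, and 184, 167 and 167 for DMSO. The 72 h and DMSO arrays overlapped through 72 h replicate 1 alone. The log2 difference from DMSO was -0.29 ± 0.11 at 72 h (limma adjusted p = 0.156) and -0.033 ± 0.11 at 6 h. Without 72 h replicate 1 the 72 h difference was -0.43, with a limma adjusted p of 0.00509. That was the 1 of 19 alternative settings that called SHH at 72 h against DMSO. In it 12.2% of all probe sets passed, against 7.45% with all arrays. The dimmer SHH probe set stood at -0.40 ± 0.14 at 72 h (adjusted p = 0.113).

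Over the 24 member probe sets, 1 rose and 23 did not pass at 72 h against DMSO, where 7.45% of all probe sets passed and 2.06% of all passed as higher. The median log2 difference of the members was 0.031, against -0.028 over all probe sets. At 6 h limma called 0 of the 24, 1 had an unadjusted p under 0.05 (1313 of all 54613 probe sets), and 0.0732% of all probe sets passed, and the members' median was -0.0094, against 0.0016 over all. For 72 h against 6 h the same PTCH1 probe set was the 1 called, against 6.46% of all probe sets called and 1.61% as higher, with a median of 0.047 against -0.031. The groups did not overlap for 2 of the 24 at 72 h against DMSO (19.8% of all probe sets), 4 at 6 h against DMSO (8.35% of all) and 4 at 72 h against 6 h (17.9% of all). Both calls were of 1 probe set of 1 gene.

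Other genes of the pathway were described by the brightest probe set of each. Of 14 measured genes of ligand release and reception, 3 fell at 72 h against DMSO and 11 did not pass, where 11.8% of all 19775 genes passed, 3.67% as higher and 8.11% as lower. Measurable signal was found for 10 of the 14, and in a fit of only such genes 26.6% of all 12678 passed. DISP2, a relative of the protein that releases lipid-modified ligand, had a signal of 240.1, 228 and 225 at 72 h, 400.4, 366 and 383 at 6 h, and 371, 381 and 376 for DMSO, and fell by 0.70 on the log2 scale (SE 0.066). The 72 h arrays lay well below all others. SCUBE3, of a secreted family that takes up released ligand, fell by 0.85 (SE 0.16), and GPC1, a membrane heparan sulphate proteoglycan, fell by 0.48 (SE 0.089). Each of the 3 kept its call in all 19 alternative settings. A second SCUBE3 probe set with measurable signal stood at -0.44 and a second of GPC1 at -0.34, neither passing. The list's median was -0.25, against -0.033 over all genes. At 6 h limma called 0 of the 14, with 0 at an unadjusted p under 0.05, and 0.142% of all genes passed.

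The co-receptor genes BOC, CDON and GAS1, whose proteins present ligand to PTCH1, were not among the genes called, with log2 differences at 72 h of -0.15, -0.31 and 0.28. The ACTB 3' to 5' ratio, which was higher at 72 h, and the summed ductal marker signal, which was lower, move with the falls of DISP2, SCUBE3 and GPC1. The upper quartile of signal was also lower on 72 h replicates 2 and 3, but not on 72 h replicate 1. The GAPDH ratio overlapped between 72 h and DMSO, and the part of these measures in the falls was not tested. The ductal list went both ways at 72 h against DMSO, as KRT7, KRT8 and KRT18 fell by 1.07, 0.47 and 0.29, MUC1 rose by 0.36 and the other 4 did not pass, and the sum is mostly that of the keratins KRT8, KRT18 and KRT19. Against the 6 h arrays the same 3 genes fell at 72 h, by 0.73 for DISP2, 0.69 for SCUBE3 and 0.53 for GPC1, where 10.1% of all genes passed, 3.04% as higher and 7.1% as lower. The SCUBE3 call against 6 h ended without 6 h replicate 2 or 3 (adjusted p = 0.0697 and 0.0931), and also with median centring, without the trend or with only those groups fitted (0.0671 to 0.0735).

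Among 17 measured genes of the primary cilium and signal relay, through which SMO acts, limma called 0 in each comparison, with 7 at an unadjusted p under 0.05 at 72 h against DMSO, 0 at 6 h and 3 for 72 h against 6 h. Over all 19775 genes 4954, 643 and 4754 had such a p in these comparisons. The medians of the cilium genes were -0.0051, -0.014 and -0.051. At 72 h against DMSO the count was 3 after quantile normalization, cyclic loess or with 1 filtered probe set per gene, 2 with all filtered probe sets, 2 without 72 h replicate 1, and 1 without 72 h replicate 2 or 3. The filtered fits held 16 of the 17 genes. They called 26.6% of all filtered genes with 1 probe set per gene and 19.8% of all filtered probe sets. Of all probe sets, 8.48% passed after quantile normalization and 8.51% after cyclic loess. Without 72 h replicate 1, 2 or 3 the share was 12.2%, 6.17% and 5.72%, against 7.45% in the main fit.

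Among 19 measured genes of GLI phosphorylation and degradation, 1 rose and 3 fell at 72 h against DMSO, where 3.67% of all genes rose and 8.11% fell. Measurable signal was found for 18 of the 19, and in a fit of only such genes 26.6% of all 12678 passed. FBXW11, a substrate receptor of the SCF ubiquitin ligase, rose 1.15-fold (log2 0.21 ± 0.045), while a second FBXW11 probe set, at -0.14, did not pass. CUL1, the scaffold of the same ligase, fell by 0.27 (SE 0.057), the casein kinase gene CSNK1E by 0.60 (SE 0.13) and the kinase gene DYRK2, whose product phosphorylates GLI2, by 0.62 (SE 0.15). Further probe sets did not pass, at -0.14 for CUL1, -0.18 for CSNK1E and -0.38, -0.042 and -0.072 for DYRK2. The same 4 passed for 72 h against 6 h, and limma called 0 at 6 h, with 1 at an unadjusted p under 0.05. The median was -0.027 at 72 h. The count moved with single arrays and with the settings. At 72 h against DMSO it was 1 without DMSO replicate 1, 0 without DMSO replicate 3, 7 without 72 h replicate 1, and 2 with median centring or without the trend. In the same order, 4.17%, 3.89%, 12.2%, 3.85% and 4.22% of all probe sets passed, against 7.45% in the main fit. For 72 h against 6 h the count ran from 1 (without the trend, or without 6 h replicate 1 or 3) to 6 (without 72 h replicate 1). In the same order, 3.23%, 4.2%, 3.7% and 11.5% of all probe sets passed, against 6.46% in the main fit. Of 19 settings for 72 h against 6 h, the call was kept in 16 for CSNK1E, 9 for DYRK2, 17 for FBXW11 and 13 for CUL1.

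Among 22 measured genes reported as GLI targets in various tissues, 1 rose and 4 fell at 72 h against DMSO, and 17 did not pass, where 3.67% of all genes rose and 8.11% fell. SNAI2, a repressor of epithelial genes whose mean log2 signal lay below that of the median probe set, had a signal of 13.2, 12.6 and 10.2 at 72 h, 18.8, 17.5 and 18.2 at 6 h, and 24.8, 21.7 and 25.6 for DMSO. The groups did not overlap, in the order opposite to that of PTCH1, and SNAI2 fell by 1.01 at 72 h (SE 0.14, limma adjusted p = 0.000576) and by 0.61 for 72 h against 6 h. SFRP1, a secreted Wnt antagonist, had a signal of 473, 469.6 and 428 at 72 h, against 737, 699 and 734 for DMSO, and fell by 0.66 (SE 0.058). Its other probe sets with measurable signal stood at -0.44 and -0.20, neither passing. IGFBP6, a binder of insulin-like growth factor, fell by 0.85 (SE 0.18), and the Notch ligand gene JAG2 by 0.27 (SE 0.074), with a second JAG2 probe set at -0.29 (adjusted p = 0.0527).

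FOXF2, a forkhead factor of gut mesenchyme, was the 1 reported target that rose, 1.17-fold (log2 0.23 ± 0.055). The cell cycle genes CCND1 and CCND2 stood at -0.18 and 0.042, MYCN at 0.055, the survival gene BCL2 at 0.11 and FOXM1 at -0.12, none passing. The list's median was -0.11 at 72 h and -0.059 at 6 h, where limma called 0 and 3 had an unadjusted p under 0.05. At 72 h against 6 h the same 4 fell, and the count was 1 to 5 in the alternatives. The SNAI2 call against 6 h ended without any 1 of the 6 h arrays or 72 h replicate 3, or with only those groups fitted (0.0585 to 0.0714). Of 19 settings for 72 h against 6 h, SFRP1 kept its call in 19, IGFBP6 in 17 and JAG2 in 6. Against DMSO the SNAI2 and SFRP1 calls held in all of their 17 and 19 alternative settings. The IGFBP6 call ended without DMSO replicate 1 or 3 (adjusted p = 0.0544 and 0.0527), and those of FOXF2 and JAG2 without any 1 DMSO array or 72 h replicate 2 or 3 (0.0516 to 0.168), so that the count of 5 became 2 or 3. Both also lost their calls with median centring, without the trend and with array weights, and JAG2 with the replicate block (0.0792), quantile normalization (0.161), cyclic loess (0.148), only those groups fitted (0.0787) and without 6 h replicate 2 or 3. With the filter on dim probe sets the count was 8 of the 15 targets left. In those fits 19.8% of all probe sets passed, or 26.6% with 1 probe set per gene. Without 1 DMSO array or 72 h replicate 2 or 3, 3.89 to 6.17% of all probe sets passed, against 7.45% in the main fit.

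**Figure D4:**
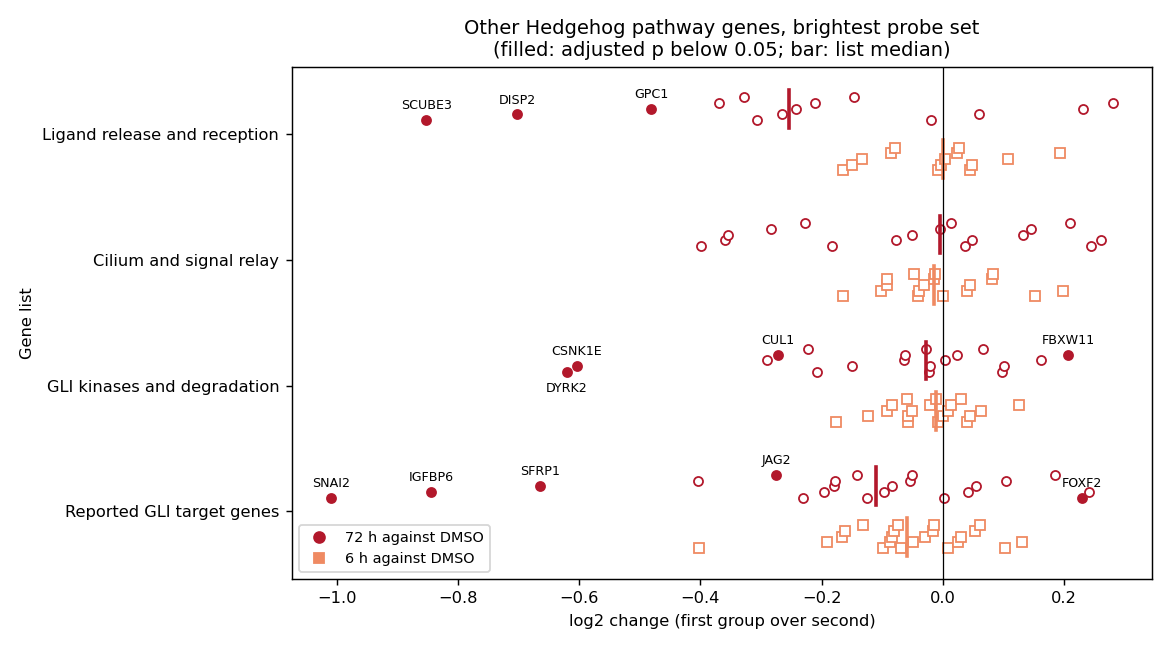
The log2 change of other Hedgehog pathway genes at 72 h against DMSO (circles) and 6 h against DMSO (squares), by role, with a bar at each list's median; filled symbols passed an adjusted p of 0.05 and are named. At 72 h the called genes run from -1.01 (SNAI2) to 0.23 (FOXF2), and no gene is called at 6 h.

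Likeness to the pattern of PTCH1 209815_at over the 9 arrays was ranked among 12070 genes with measurable signal. Members and symbols of uncharacterised loci, LINC and antisense transcripts were left out of the ranking. The 5 most alike were CTBS, a lysosomal chitobiase (Pearson r = 0.991), FRAT1, a GSK3-binding protein gene (r = 0.990), IRF7, an interferon regulatory factor (r = 0.988), KISS1R, the kisspeptin receptor (r = 0.988), and RHOF, a small GTPase (r = 0.988). The 9 arrays fall into 3 groups, so these values describe the shared order of the groups, and 342 of the ranked genes had an r above 0.9. At 72 h against DMSO, CTBS rose 1.38-fold, FRAT1 2.55-fold, IRF7 1.58-fold, KISS1R 3.95-fold and RHOF 1.49-fold. At 6 h none of the 5 was called over all probe sets, with log2 differences of 0.13, 0.46, 0.19, 0.54 and 0.25. None belongs to the Hedgehog gene lists.

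**Figure D5:**
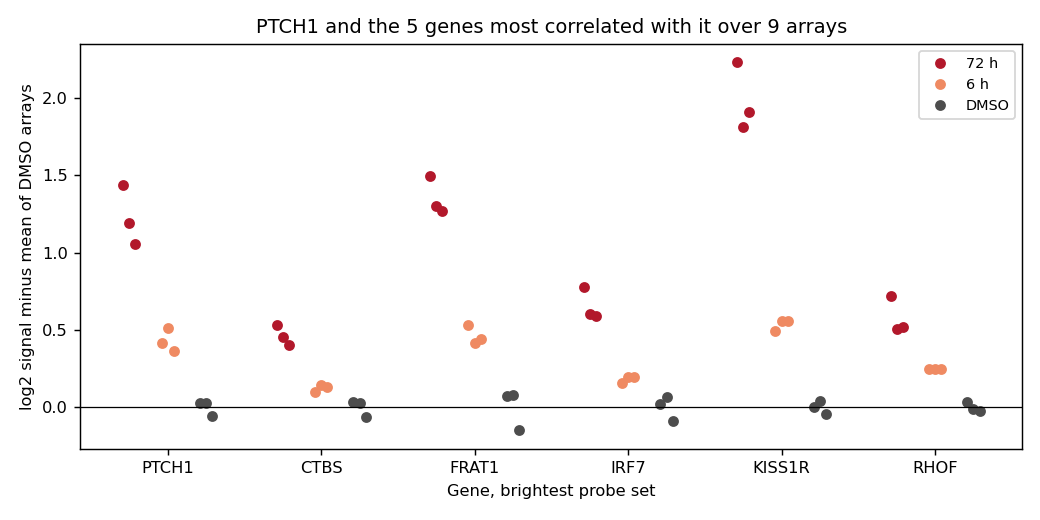
The log2 signal of PTCH1 and the 5 ranked genes most correlated with it on each array, minus the mean of the DMSO arrays, with the 72 h, 6 h and DMSO arrays from left to right. In all 6 genes every 72 h array lies above every 6 h array and every 6 h array above every DMSO array. The 5 were chosen by their correlation with PTCH1 over these same arrays, so the shared order follows from the choice.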

How the data were processed

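The deposited table held linear intensity values for 54675 probe sets on 9 Affymetrix arrays. MAS5 is the tool listed, per the submitters' processing notes, with no version or later step named in the sources used here. Exact ties between arrays occurred for 59.2% of probe sets, which can make a spread too small. Names came from the platform table, updated by gene identifier: 41091 probe sets had 1 symbol, 1801 several and 11721 none, without the 62 control probe sets. Intensity was log2 transformed without further normalization. All 54613 probe sets were fitted with limma 3.58.1 in R 4.3.3 (lmFit, eBayes with trend, 6 residual degrees of freedom, Benjamini-Hochberg over all probe sets, called below 0.05), without a filter on low values. On simulated data the fit found 92.4 to 95.5% of changes of 1 log2 unit. It found 41.8 to 59.7% of changes of 0.5 and 7.46 to 10.4% of changes of 0.25. These changes were planted only in probe sets with measurable signal, which leaves out GLI1 and HHIP. False calls exceeded the nominal rate wherever the 72 h arrays took part. "Rose" and "fell" refer to called probe sets, and errors are SE of limma unless given as SD. A gene was represented by its brightest probe set. Named were all members, up to 4 called genes per list and comparison with the largest change, and the 5 ranked genes most correlated with PTCH1. FOXF2 at 72 h, the uncalled list genes and SHH were named after their values were seen. Members and lists were chosen with earlier results of these data known. Promoter sequences are from RefSeq (GRCh38.p14).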

Additional observations from a re-analysis of the deposited data

Results flagged for a closer look

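The signal of PTCH1 differed between the exposure times, where time in culture and exposure cannot be told apart. Probe set 209815_at was higher at 72 h than at 6 h by 0.80 on the log2 scale (SE 0.11, limma adjusted p = 0.00098), with 3 of 3 arrays at 72 h above all arrays at 6 h. As both times share the DMSO arrays, this is also the difference of the 2 changes from DMSO, 1.23 and 0.43. No other member probe set was called between the times. Groups of 3 arrays are too small for a test of single outlying arrays.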

How the results depend on the processing

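The number of member probe sets called was 0 at 6 h, 1 at 72 h against DMSO and 1 at 72 h against 6 h in each of the 19 alternative settings, and the 1 was PTCH1 209815_at each time, with the replicate number as a replicate block too (limma adjusted p = 1e-04 and 0.0025). The deviations of same-numbered arrays correlated above 0.1 in 2 of 9 pairs (-0.23 to 0.17). Both joined DMSO and 6 h arrays (0.15 for replicate 1, 0.17 for replicate 2), and the remaining such pair stood at -0.068. Differently numbered DMSO and 6 h arrays reached 0.11 at most, and all 18 differently numbered pairs ran from -0.23 to 0.29. Deviations within such small groups cannot decide whether the numbers pair the arrays. The block called 28, 3344 and 2808 of all probe sets at 6 h, 72 h and between the times. The log2 change of PTCH1 ran from 1.03 to 1.36 at 72 h against DMSO and from 0.69 to 0.94 at 72 h against 6 h. The shifts of PTCH1 against the GLI genes kept their sign in every setting run. Signs that turned belonged to uncalled values near 0. At 72 h against DMSO, SMO stood at 0.040 after quantile normalization and 0.062 after cyclic loess, and SUFU at 0.13 and 0.12, at 0.018 with median centring and at 0.053 with array weights. At 72 h against 6 h, quantile normalization and cyclic loess turned GLI3 (0.029 and 0.051) and SUFU (0.029 and 0.023), and median centring turned HHIP (0.0084). With 1 array left out, SMO ran from -0.069 to 0.19 at 6 h, -0.18 to 0.060 at 72 h and -0.24 to 0.016 between the times. SUFU ran from -0.23 to 0.16 at 72 h and -0.33 to 0.059 between the times, GLI1 from -0.37 to 0.089 and -0.12 to 0.34, GLI2 from -0.011 to 0.096 at 72 h, and GLI3 from -0.083 to 0.041, HHIP from -0.073 to 0.022 between the times, and SHH from -0.057 to 0.014 at 6 h. The cause was not tested. GLI1 and HHIP lie below the filter and have no value in the 2 settings that apply it. Over all probe sets, 40 were called at 6 h (6 to 104 in the alternatives), 4067 at 72 h against DMSO (2100 to 6672) and 3528 at 72 h against 6 h (1639 to 6270). Of the calls at 72 h against DMSO 72.3% were lower, against 57.0% after quantile normalization and 55.7% after cyclic loess. Settings for the 4 lists and SHH were chosen after seeing the data.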
